A study of Arabidopsis thaliana with 9 samples.

Results

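The 10 genes described here encode proteins of chlorophyll synthesis in Arabidopsis (Arabidopsis thaliana), and the rule that chose them names their steps in the pathway and uses no expression value. They are HEMA1 (AT1G58290), GUN4 (AT3G59400), CHLH (AT5G13630), CHLI1 (AT4G18480), CHLD (AT1G08520), CRD1 (AT3G56940), PORA (AT5G54190), PORB (AT4G27440), PORC (AT1G03630), and CAO (AT1G44446), that is 10 of the 32310 loci in the data. All 10 passed the filter on low counts. Steady-state RNA was measured by strand-specific RNA-seq in whole Col-0 wild-type seedlings grown on ½ MS medium, with 3 libraries at 22 °C (0 h), 3 after 3 h at 4 °C, and 3 after 12 h at 4 °C. Each replicate was a pool of about 20 to 30 seedlings. The sources give an age of 10 d and place the cold treatment on the day numbered 12. Cold began 4 h after lights on in a 16 h day, so the groups were taken 4, 7, and 16 h after lights on, and light was about 100 µE at 22 °C and 20 to 25 µE at 4 °C. Effects of cold, weaker light, and time of day cannot be told apart in any comparison with 22 °C, and time of day differs between the cold groups as well.

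Chlorophyll is made in the plastid from glutamyl-tRNA through 5-aminolevulinic acid and protoporphyrin IX, where the pathway divides into an iron branch to heme and a magnesium branch to chlorophyll. HEMA1 is the main glutamyl-tRNA reductase at the entry of the pathway. CHLH, CHLI1, and CHLD are subunits of magnesium chelatase, which GUN4 activates, and CRD1 is a subunit of the cyclase that builds the fifth ring. The POR enzymes reduce protochlorophyllide in a reaction that needs light, with PORA known for etiolated seedlings and PORB and PORC for green tissue, and CAO oxidizes chlorophyll a to chlorophyll b. Many intermediates are phototoxic, so supply and use of each are kept in balance in leaves.

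The largest rises among the 10 genes were in PORA and PORB, and the 250 bases upstream of each annotated POR start are shown because these 2 promoters share a motif that the PORC window does not hold. The sequences are RefSeq TAIR10.1, 5′ to 3′ on the strand of the gene: PORA from chr5:21992815-21993064 (minus strand), PORB from chr4:13725296-13725545 (plus strand), and PORC from chr1:907273-907522 (plus strand). Capitals mark the evening element AAAATATCT, a motif bound by morning clock factors, and in PORA also CTTATC, the I-box GATAAG on the opposite strand.
PORA: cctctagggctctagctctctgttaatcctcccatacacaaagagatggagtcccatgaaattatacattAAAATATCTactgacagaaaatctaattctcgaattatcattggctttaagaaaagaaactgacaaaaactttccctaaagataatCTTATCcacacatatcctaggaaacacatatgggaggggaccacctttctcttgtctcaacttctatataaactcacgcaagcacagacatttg
PORB: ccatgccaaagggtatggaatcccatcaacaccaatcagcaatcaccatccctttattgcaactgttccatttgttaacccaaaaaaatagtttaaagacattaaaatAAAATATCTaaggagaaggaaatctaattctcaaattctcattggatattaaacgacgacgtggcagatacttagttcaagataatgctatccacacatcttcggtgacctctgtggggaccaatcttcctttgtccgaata
PORC: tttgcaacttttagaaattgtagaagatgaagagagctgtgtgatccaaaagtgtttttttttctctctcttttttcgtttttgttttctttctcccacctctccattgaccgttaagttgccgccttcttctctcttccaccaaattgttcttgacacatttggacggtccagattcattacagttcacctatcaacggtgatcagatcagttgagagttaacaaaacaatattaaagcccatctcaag
The evening element began 180 bases before the start of PORA and 142 bases before that of PORB. Searched on both strands from 250 bases before to 50 bases after the start, it was present in 2.82% of 27443 annotated promoters. A match is a description of the letters and not of a bound factor.

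The last 120 upstream bases of CAO, which was lower after 12 h, and of CRD1, which was not called, are shown because both hold the G-box CACGTG, the core recognized by HY5 and PIF factors. CAO is from chr1:16851272-16851391 (minus strand) and CRD1 from chr3:21076385-21076504 (plus strand). Capitals mark CACGTG and, in CRD1, AGATTTTT, which is the CCA1-binding site AAAAATCT on the opposite strand.
CAO: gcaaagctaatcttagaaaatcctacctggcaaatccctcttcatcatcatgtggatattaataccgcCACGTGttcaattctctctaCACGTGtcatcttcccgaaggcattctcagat
CRD1: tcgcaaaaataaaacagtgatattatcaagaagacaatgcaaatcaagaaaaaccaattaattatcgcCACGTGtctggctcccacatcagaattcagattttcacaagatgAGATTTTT
CAO held the G-box at 52 and 32 bases before its start, and CRD1 at 52 bases. It was found in 7.68% of the promoters. In the same windows, the I-box GATAAG was found for GUN4, CHLI1, PORA, and CAO and in 14.7% of all promoters, and the CCA1-binding site AAAAATCT for GUN4, CRD1, and CAO and in 7.88%. The core of the cold-responsive CRT/DRE element, CCGAC, was found for CHLH, CHLI1, and CRD1, which were not called in any comparison, and in 15.1% of all promoters. The FHY3/FAR1-binding site CACGCGC was found for 0 of the 10 and in 1.34%. HEMA1, CHLD, and PORC held none of these 6 motifs.

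The libraries hold 15910839 to 24291683 assigned reads, and 20460 genes passed the filter. Expression is given per library, in the order of replicates 1, 2, and 3, as normalized CPM (counts scaled to a common library size, with TMM factors that adjust for library composition). Calls need an adjusted p below 0.05 in edgeR together with a log2 fold change of 0.5 or more in either direction (the fold minimum). One library in each cold group stood apart for these genes: 3 h replicate 1 and 12 h replicate 2 were each the lowest of their group for 9 of the 10 genes, the exception being PORA. The same libraries had the lowest summed level of 6 shoot markers, 30259 CPM against 33605 and 34561 at 3 h and 30017 against 34559 and 36499 at 12 h, where 22 °C gave 36453 to 38183. The sum of 11 root markers was 15.3% of the shoot sum in 3 h replicate 1 against 11.1% and 11.3%. In 12 h replicate 2 it was 13.6% against 10.3% and 11.7%. Most of this root sum was 1 gene, PYK10. It had 4439 of 4643 CPM in 3 h replicate 1 and 3884 of 4082 CPM in 12 h replicate 2. The root sum in 12 h replicate 3 was 4055 CPM. The 22 °C libraries were uneven too, with replicate 3 the lowest for 7 of the 10 genes and replicate 1 the highest for 6. There the root sum was 8.45% of the shoot sum in replicate 1 against 11.3% and 10.9%. Fewer cells of a type and less RNA per cell cannot be told apart in whole seedlings. Results without both 3 h replicate 1 and 12 h replicate 2 were added after seeing the data and stand beside the calls.

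**Figure D1:**
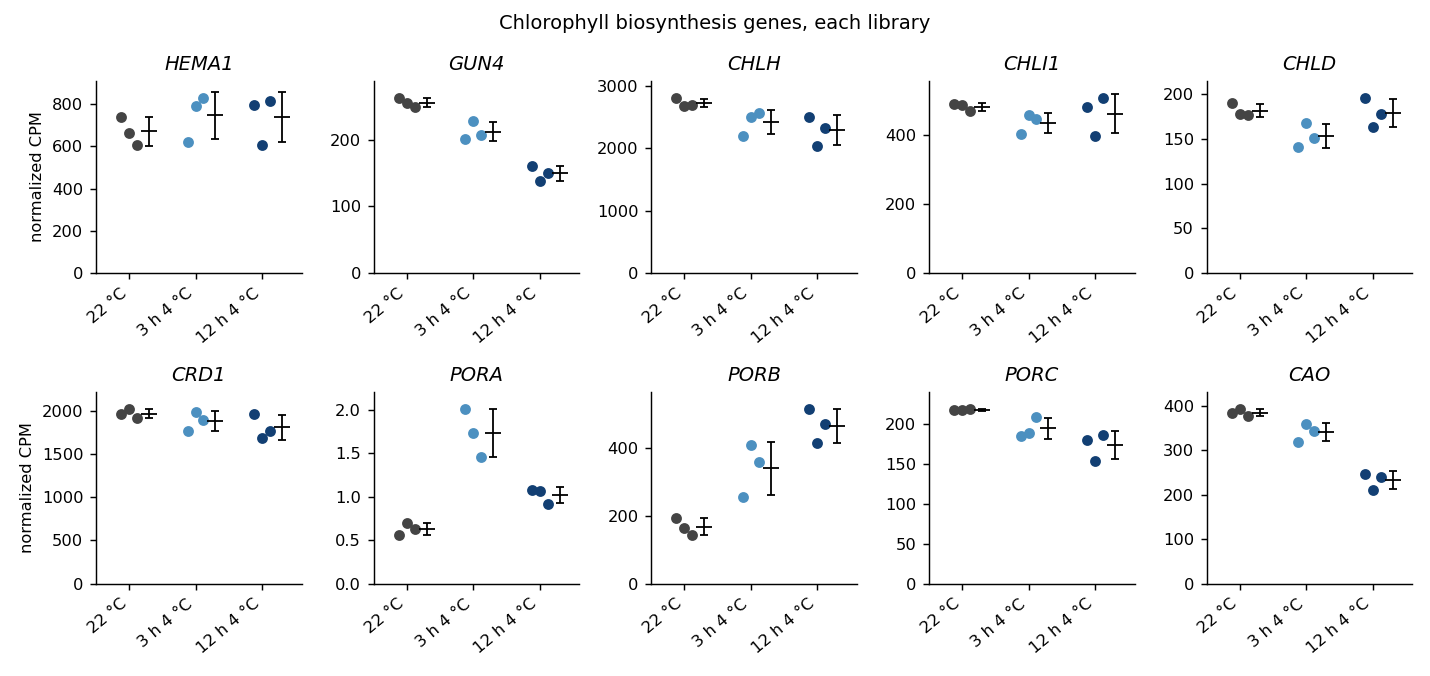
Normalized CPM of the 10 genes (vertical axes start at 0) in each library at 22 °C (grey), 3 h (light blue), and 12 h (dark blue) at 4 °C, with the mean and SD of 3 libraries beside the points. PORB climbs from 145 to 195 CPM at 22 °C to 415 to 516 CPM after 12 h, while GUN4 and CAO step down and CRD1 and CHLI1 stay within overlapping ranges at 12 h.

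After 3 h at 4 °C, PORA and PORB were higher and 0 of the 10 were lower with edgeR and with DESeq2, with 3 lower at an unadjusted edgeR p under 0.05. After 12 h, PORB was higher and GUN4 and CAO were lower. Of all genes tested, 10.5% were called at 3 h (7.05% higher, 3.47% lower) and 33.1% at 12 h (15.5% higher, 17.7% lower), so 2 and 3 of 10 are not far from the background. The median log2 fold change of the 10 genes was −0.15 at 3 h and −0.09 at 12 h, against −0.01 and −0.03 over all genes. Both comparisons use the same 22 °C libraries. HEMA1, CHLH, CHLI1, CHLD, CRD1, and PORC were not called in any comparison.

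At the entry of the pathway, HEMA1 had 741, 666, and 607 CPM at 22 °C, 621, 792, and 828 CPM after 3 h, and 798, 605, and 817 CPM after 12 h. The 3 groups overlapped, and 1 library of each cold group lay near the lower end of the 22 °C range. The log2 fold change was 0.15 (SE 0.12) at 3 h and 0.14 (SE 0.12) at 12 h, with 95% intervals of −0.09 to 0.40 and −0.10 to 0.38. Its paralog HEMA2, a glutamyl-tRNA reductase known from roots and stress, was far lower, with 20.1 ± 0.6 CPM at 22 °C and 29.7 ± 3.1 CPM after 12 h (SD, n = 3), and rose by 0.56 (SE 0.10, adjusted p = 1.9e-04 in edgeR). That call is lost with upper quartile scaling (0.43) and without 12 h replicate 3 (0.50).

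The Mg chelatase activator GUN4 was lower after 12 h. It had 263, 256, and 249.5 CPM at 22 °C, 201, 229, and 208 CPM after 3 h, and 162, 138, and 150.1 CPM after 12 h. Each group lay below the one before it with no overlap. The change was −0.27 (SE 0.08, adjusted p = 0.024 in edgeR) at 3 h, under the fold minimum, and −0.77 (SE 0.08, adjusted p = 6.3e-07 in edgeR) at 12 h, a level 1.71-fold lower. Without the pair of libraries low in shoot markers it was −0.72 at 12 h. GUN4 shares 946 bases, 73% of its span, with the kinase gene GCN2 on the opposite strand. GCN2 had 24.2, 22.6, and 25.6 CPM in the 3 groups and was not called. Whether Salmon used the strand of the reads is not given, so reads of the pair may not have been separated.

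Of the Mg chelatase subunits, CHLH, the large porphyrin-binding one, had 2803, 2685, and 2693 CPM at 22 °C, 2204, 2511, and 2568 CPM after 3 h, and 2512, 2033, and 2325 CPM after 12 h. Every cold library lay below every 22 °C library, and the cold groups overlapped. The change was −0.17 (SE 0.09, adjusted p = 0.25 in edgeR) at 3 h and −0.25 (SE 0.09, adjusted p = 0.032 in edgeR) at 12 h, the latter under the fold minimum.

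For CHLI1, an ATPase subunit, the values were 491, 487, and 468 CPM at 22 °C, 403, 457, and 448 CPM after 3 h, and 480.4, 398, and 506 CPM after 12 h. The 3 h libraries lay below 22 °C and the 12 h libraries spanned the 22 °C range. Changes were −0.15 (SE 0.09) and −0.06 (SE 0.09), not called. CHLD, the partner subunit, had 190.5, 178, and 177 CPM at 22 °C, 141, 168, and 152 CPM after 3 h, and 195, 164, and 178 CPM after 12 h. It too was below 22 °C in all 3 h libraries and overlapped with 22 °C at 12 h, at −0.24 (SE 0.08, adjusted p = 0.062 in edgeR) and −0.02 (SE 0.08). The second CHLI gene, CHLI2, had 71.9 ± 2.8 CPM at 22 °C and 70.6 ± 4.5 CPM after 12 h (SD, n = 3), a change of −0.03 (SE 0.08).

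The cyclase subunit CRD1 was not called. Its values were 1962, 2018, and 1912 CPM at 22 °C, 1764, 1989, and 1892 CPM after 3 h, and 1967, 1688, and 1764 CPM after 12 h. The groups overlapped at both times. The change was −0.06 (SE 0.08) at 3 h and −0.12 (SE 0.08) at 12 h, with 95% intervals of −0.22 to 0.10 and −0.28 to 0.04.

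The POR genes went different ways. PORB was the member with the largest called change at 12 h. It had 195, 165, and 145 CPM at 22 °C, 256, 409.8, and 360.3 CPM after 3 h, and 516, 415, and 471 CPM after 12 h, that is 168 ± 25.6, 342 ± 78.6, and 468 ± 50.7 CPM (SD, n = 3). The 3 groups did not overlap, and the 3 h libraries spread the most. PORB rose by 1.02 (SE 0.15, adjusted p = 1.0e-04 in edgeR) at 3 h, or 2.03-fold, and by 1.47 (SE 0.15, adjusted p = 5.3e-07 in edgeR) at 12 h, or 2.78-fold. Without the libraries low in shoot markers the rises were 1.19 and 1.55.

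PORA was close to the limit of detection. Its reads numbered 11, 16, and 12 at 22 °C, 52, 32, and 32 after 3 h, and 20, 18, and 13 after 12 h, or 0.6, 0.7, and 0.6 CPM, then 2.0, 1.7, and 1.5 CPM, then 1.1, 1.1, and 0.9 CPM. By CPM each group was apart from the others, with 3 h the highest. The rise at 3 h was 1.46 (SE 0.35, adjusted p = 0.0080 in edgeR), and the 12 h value of 0.69 (SE 0.37, adjusted p = 0.14 in edgeR) was not called. Without the libraries low in shoot markers the 3 h value was 1.33 (adjusted p = 0.042 in edgeR). PORA and PORB share 18 of the 31-base words of their transcripts, 1.09% of those of PORA, and the part of reads assigned between them was not tested. In CPM, PORB was higher at 12 h than at 3 h in every library, and PORA lower.

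PORC had 218, 218, and 219 CPM at 22 °C, 186, 189, and 209.8 CPM after 3 h, and 181, 153, and 187 CPM after 12 h. The cold libraries all lay below 22 °C. The change was −0.16 (SE 0.08) at 3 h and −0.33 (SE 0.08, adjusted p = 0.0039 in edgeR) at 12 h, below the fold minimum.

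Within the POR family, PORC was the most abundant gene per transcript length at 22 °C and PORB in the cold. In TPM, which divides reads by effective transcript length and sums to the same total in each library, PORB made up 46.8%, 42.4%, and 39.4% of the POR sum at 22 °C, 57.0%, 67.3%, and 62.1% after 3 h, and 73.2%, 72.4%, and 71.4% after 12 h. PORC took 57.0 ± 3.70%, 37.5 ± 5.04%, and 27.5 ± 0.913% (SD, n = 3), and PORA 0.362% or less on average. The POR sum went from 307 ± 16 TPM at 22 °C to 409 ± 54.2 TPM at 3 h and 438 ± 32.9 TPM at 12 h, and no cold library was below any 22 °C library.

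The shift between POR genes was tested as the log2 ratio of TPM (with 0.1 added to each) in 1 exact permutation test over the 9 libraries for each of 5 gene pairs, two-sided, over all arrangements of the libraries. The PORC to PORB ratio was 0.41 at 22 °C, −0.73 after 3 h, and −1.40 after 12 h, with an exact permutation p = 0.00357, the smallest the design can give, and 0.0179 adjusted over the 5 pairs. PORA to PORC was −8.09, −6.63, and −7.13 (exact permutation p = 0.00714, adjusted 0.0179). PORA to PORB was −7.68, −7.37, and −8.53 (exact permutation p = 0.0214, adjusted 0.0268). This last result did not hold without 22 °C replicate 1 or 2, 3 h replicate 1, or any 12 h replicate, with adjusted p of 0.0536 to 0.0759 in the same exact permutation test. HEMA1 to HEMA2 was 5.13, 4.81, and 4.70 (exact permutation p = 0.0179, adjusted 0.0268), and was lost without 22 °C replicate 1 or 2 or 12 h replicate 2 or 3 (adjusted 0.0536 to 0.0714). CHLI1 to CHLI2 was 2.63, 2.45, and 2.595 (exact permutation p = 0.154).

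**Figure D2:**
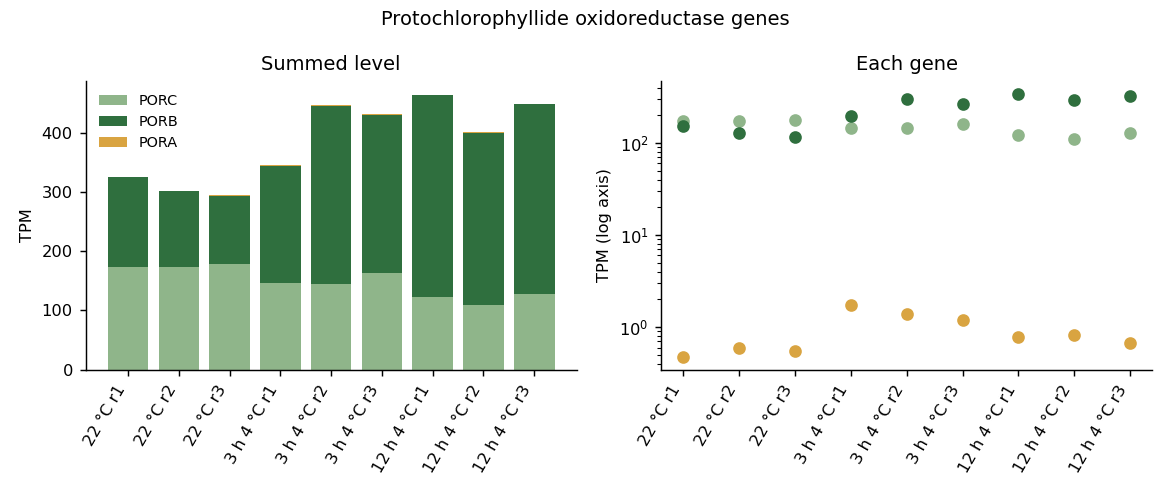
TPM of PORA, PORB, and PORC in each of the 9 libraries, stacked on a linear axis from 0 (left) and each gene on a log axis (right). PORB goes from 39.4% to 46.8% of the sum at 22 °C to 71.4% to 73.2% after 12 h, PORC shrinks, and PORA stays under 2 TPM.

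CAO fell in the cold by 12 h. It had 384, 393, and 378 CPM at 22 °C, 319, 359, and 343 CPM after 3 h, and 248, 209.9, and 240.0 CPM after 12 h. As with GUN4, each group lay below the one before it. The 3 h value of −0.18 (SE 0.08, adjusted p = 0.15 in edgeR) was not called, and at 12 h CAO fell by 0.73 on the log2 scale (SE 0.08, adjusted p = 1.4e-06 in edgeR), to a level 1.66-fold lower. Without the libraries low in shoot markers the 12 h value was −0.66.

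CAO was also the member whose reads were spread over several annotated transcripts. AT1G44446.1, with 9 exons and 1611 coding bases, held 40.2%, 42.4%, and 53.4% of CAO TPM at 22 °C, 23.4%, 27.4%, and 21.8% after 3 h, and 46.4%, 26.0%, and 46.0% after 12 h. AT1G44446.4, which lacks the first of these exons and has 1305 coding bases, had medians of 37.1%, 49.8%, and 35.7%. AT1G44446.3 retains the intron between 16849206 and 16849283 on chromosome 1 (TAIR10.1) and has 1302 coding bases. It went from 6.35% to 11.9% at 22 °C to 18.4% to 21.0% after 3 h and 14.8% to 19.3% after 12 h. AT1G44446.2, which retains the intron between 16848828 and 16848912 and has 1536 coding bases, went from 7.98% to 12.1% to 5.25% to 6.07% and 2.41% to 4.84%. At 3 h the shares of every form lay apart from those at 22 °C. At 12 h this held only for the last 2 forms, while AT1G44446.1 and AT1G44446.4 overlapped with 22 °C. How often shares separate in this way over all transcripts was not computed. The shares are Salmon's division of reads among overlapping forms and were not tested. Of the other members, PORC had 3.33% to 7.90% on a second transcript and the rest at most 0.252%.

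**Figure D3:**
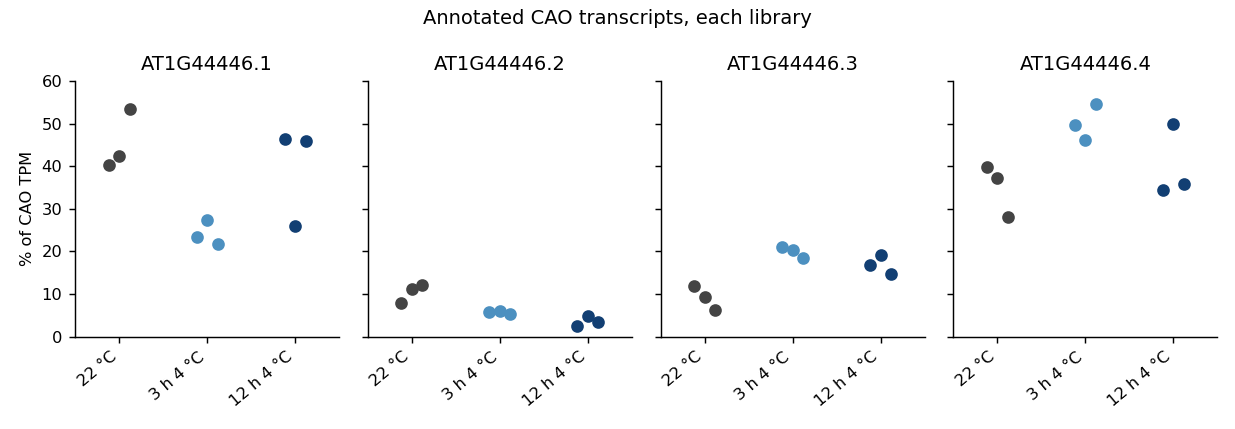
Share of CAO TPM (percent, vertical axis) assigned to each of 4 annotated transcripts in each library at 22 °C (grey), 3 h (light blue), and 12 h (dark blue) at 4 °C. AT1G44446.3 is at 6.35% to 11.9% at 22 °C and 14.8% or more in every cold library, and AT1G44446.2 is lower in every cold library than at 22 °C.

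In the direct comparison of 12 h with 3 h, 2 of the 10 genes were lower and 0 higher. At an unadjusted edgeR p under 0.05, 2 were higher, and DESeq2 called 0 higher and 1 lower. Of all genes, 25.8% were called (11% higher, 14.8% lower). CAO was lower by 0.55 (SE 0.08, adjusted p = 4.2e-05 in edgeR), and GUN4 by 0.50 (SE 0.08, adjusted p = 9.3e-05 in edgeR), at the fold minimum. The CAO call was lost without 12 h replicate 2 (−0.48). The GUN4 call was lost without 22 °C replicate 1 (−0.497, under the fold minimum), 3 h replicate 2 (−0.45), or 12 h replicate 2 (−0.45), with DESeq2 or its size factors (both −0.48), with only the 3 h and 12 h groups in the fit (−0.499), and without both libraries low in shoot markers (−0.48). PORB was at 0.45 (SE 0.14, adjusted p = 0.021 in edgeR), and was called without 3 h replicate 2 (0.60) or 12 h replicate 2 (0.53). PORA was at −0.76 (SE 0.34, adjusted p = 0.086 in edgeR), and CHLD at 0.22 (SE 0.08, adjusted p = 0.046 in edgeR). HEMA1, CHLH, CHLI1, CRD1, and PORC were between −0.17 and 0.08.

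Without regard to the test, all libraries of a cold group lay on one side of 22 °C for 8 genes at 3 h (2 higher, 6 lower) and 6 genes at 12 h (2 higher, 4 lower), where this held for 33.9% of all genes at 3 h (17.2% higher, 16.7% lower) and 56.8% at 12 h (27.9% higher, 28.9% lower). The 12 h libraries lay apart from those at 3 h for 4 genes, PORB (higher) and GUN4, PORA, and CAO (lower), against 49.5% of all genes (23.9% higher, 25.6% lower). At 3 h the 6 lower genes were GUN4, CHLH, CHLI1, CHLD, PORC, and CAO, all with differences under the fold minimum. The shoot markers had a median change of −0.18 at both times, with 0 of 6 called by edgeR or DESeq2 (2 lower at 3 h and 3 at 12 h at an unadjusted edgeR p under 0.05, of which 1 and 2 also had an adjusted p under 0.05), and the part of shoot content in these small differences was not tested.

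**Figure D4:**
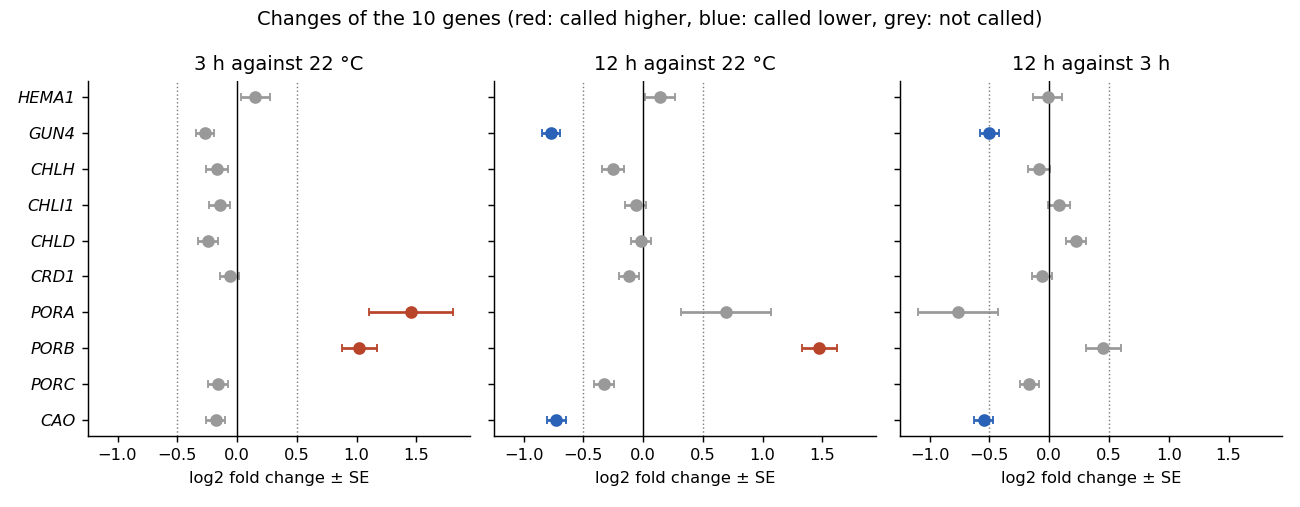
Log2 fold change (horizontal axis, with SE) of the 10 genes in the 3 comparisons, red for called higher, blue for called lower, grey for not called, and dotted lines at the fold minimum of 0.5. PORB is at 1.02 and 1.47 against 22 °C, GUN4 and CAO are past −0.5 at 12 h, and PORA has the widest error.

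Compared per transcript length, CRD1 was the most abundant of the 10 genes in every group, with 1824 ± 37.5 TPM at 22 °C, 1685 ± 58.2 TPM at 3 h, and 1439 ± 110 TPM at 12 h (SD, n = 3), followed by CHLH with 674, 579.8, and 482 TPM. At 22 °C the order went on as CHLI1 (464 TPM), HEMA1 (420.1), GUN4 (343), CAO (293), PORC (175), PORB (132), CHLD (89.5), and PORA (0.542), and no neighbours in it overlapped. At 3 h HEMA1 (443) and CHLI1 (394) overlapped, and PORB (256) overlapped with both GUN4 (273) and CAO (250.3), while every GUN4 library lay above every CAO library. At 12 h HEMA1 (396) and CHLI1 (382) overlapped. PORB followed by mean with 317 TPM. Its highest library (340 TPM) lay above the lowest of HEMA1 (337 TPM) but below every CHLI1 library. GUN4 (166) and CAO (156) came next and overlapped, and PORC had 120.5, CHLD 75.6, and PORA 0.761 TPM. PORB therefore moved from the eighth place to the fifth. The 10 genes together had 4416 ± 41.6, 4108 ± 217, and 3535 ± 233 TPM, or 0.442%, 0.411%, and 0.353% of the total. TPM carries no TMM scaling, and the TMM factors were 1.01 to 1.07 at 22 °C and 3 h and 0.889 to 0.946 at 12 h. In normalized CPM the sum was 6850 to 7248 at 22 °C and 5805 to 7060 at 12 h, which overlap.

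Of 32 other genes of the tetrapyrrole pathway tested (33 kept from the lists), 1 was higher and 0 were lower at 3 h (with edgeR 5 were lower at an unadjusted p under 0.05, and with DESeq2 0), and 2 were higher and 2 lower at 12 h, with medians of −0.09 and −0.02. Over all genes, 10.5% and 33.1% were called at these times. At 3 h HEMG2 (−0.34), a protoporphyrinogen oxidase, GBP (−0.31), a glutamyl-tRNA reductase binding protein, and UPM1 (−0.26) missed only the fold minimum. Their adjusted p in edgeR was 0.015 to 0.029. HEMA2 (0.47, adjusted p = 0.0028 in edgeR) missed it in the other direction. FC1, a ferrochelatase of the heme branch, rose by 0.99 (SE 0.07, adjusted p = 5.8e-08 in edgeR) at 3 h, from 61.7, 70.2, and 63.3 CPM to 128, 127, and 134 CPM, and by 0.66 (SE 0.07, adjusted p = 1.8e-06 in edgeR) at 12 h. The other ferrochelatase gene, FC2, was at −0.33 (SE 0.08, adjusted p = 0.0022 in edgeR) at 12 h, under the fold minimum. Its mean went from 91.6 CPM at 22 °C to 72.7 CPM. UPM1, the methyltransferase at the start of the siroheme branch, fell by 0.94 (SE 0.08, adjusted p = 4.9e-08 in edgeR) at 12 h, from 156 to 81.3 CPM. HEMF2, annotated as a coproporphyrinogen oxidase, fell by 1.25 (SE 0.18, adjusted p = 2.5e-05 in edgeR), from 12.3 to 5.17 CPM. None of the 7 other genes kept for the chlorophyll branch, CHLI2 among them, was called at either time with edgeR or DESeq2 (1 was lower at an unadjusted p under 0.05 at each time), with values between −0.32 and 0.06 at 12 h. The lowest at 12 h, CHLM, had an adjusted p = 0.012 in edgeR and missed only the fold minimum. The geranylgeranyl reductase gene CHLP of this branch was left out because its symbol did not match the reference. UPM1 and HEMF2 were also lower at 12 h than at 3 h.

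Genes that convert or break down chlorophyll changed in both directions by 12 h. Of 10 tested, 1 was lower at 3 h, and 3 were higher and 2 lower at 12 h, where 10.5% and 33.1% of all genes were called. HCAR and NYC1, reductases of the conversion of chlorophyll b back to a, rose at 12 h by 1.34 (SE 0.09, adjusted p = 7.5e-09 in edgeR) and 0.87 (SE 0.11, adjusted p = 4.5e-06 in edgeR), while CAO, for the forward reaction, fell. NOL, the other chlorophyll b reductase gene of the list, was not called, at −0.09 (SE 0.12, adjusted p = 0.55 in edgeR). HCAR had 18.3, 17.6, and 16.7 CPM at 22 °C and 48.2, 45.1, and 39.8 CPM after 12 h. The chlorophyllase gene CLH1 fell by 0.91 (SE 0.08) at 3 h and 1.84 (SE 0.08, adjusted p = 4.4e-11 in edgeR) at 12 h, from 44.2 to 12.4 CPM. CLH2 rose by 2.27 (SE 0.30) at 12 h from 1.51 CPM, and NYE1, for the magnesium-removing enzyme, fell by 0.80 (SE 0.15).

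**Figure D5:**
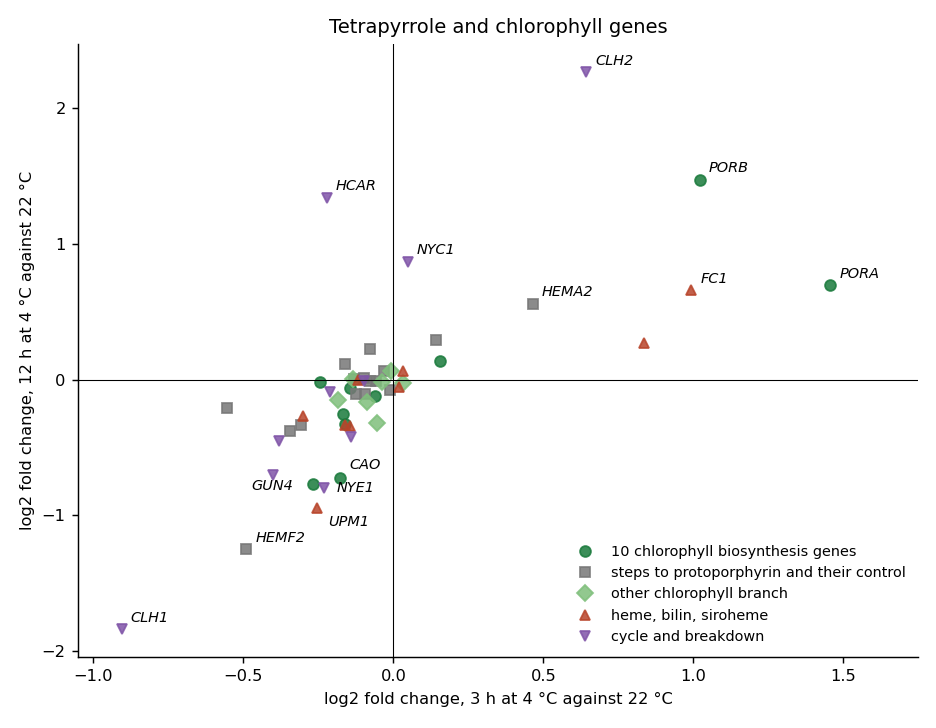
Log2 fold change against 22 °C at 3 h (horizontal axis) and 12 h (vertical axis) of the 10 genes (green circles), the other tetrapyrrole genes, and genes of the chlorophyll cycle and breakdown, with names for genes called at either time. Both axes share the 22 °C libraries. Most genes lie near 0, with PORB and FC1 up at both times and GUN4 and CAO down at 12 h.

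Of 14 known regulators of these genes, 1 was higher at 3 h, and 1 was higher and 3 were lower at 12 h. These edgeR shares were close to the 10.5% and 33.1% of all genes called. With DESeq2, 2 were higher and 3 lower at 12 h. RVE1, a clock-related MYB factor known to promote PORA expression, had 72.1, 90.5, and 86.4 CPM at 22 °C and rose by 0.83 (SE 0.12, adjusted p = 7.2e-05 in edgeR) at 3 h and 1.01 (SE 0.12, adjusted p = 2.6e-06 in edgeR) at 12 h. EIN3 and EIL1 were listed as activators of PORA and PORB. At 12 h EIN3 was at 0.49 (SE 0.07, adjusted p = 5.0e-05 in edgeR), under the fold minimum, and EIL1 at −0.07 (SE 0.08). PIF1, a phytochrome-interacting factor that restrains greening in the dark, had 39.7, 33.4, and 35.9 CPM at 22 °C, 33.6, 32.0, and 32.5 CPM after 3 h, and 7.2, 10.2, and 10.0 CPM after 12 h. It fell by 2.00 (SE 0.12, adjusted p = 1.4e-09 in edgeR) at 12 h. CGA1, a GATA factor that promotes chlorophyll synthesis, fell by 1.55 (SE 0.19) from 10.2 CPM, and HY5, a light-signaling bZIP factor, by 0.86 (SE 0.11) from 21.3 CPM. Between 3 and 12 h, 1 regulator was higher and 3 were lower, where 25.8% of all genes were called. PIF3 rose by 0.69 (SE 0.09, adjusted p = 1.0e-05 in edgeR), and PIF1 (−1.85), CGA1 (−1.49), and HY5 (−0.56) fell. GLK1 and GLK2, activators of chlorophyll and antenna genes, were not called. At 12 h GLK1 was at −0.38 (SE 0.10, adjusted p = 0.0055 in edgeR), under the fold minimum, and GLK2 at −0.04 (SE 0.09). None of 17 antenna genes, for the proteins that bind chlorophyll a and b, was called in any comparison with edgeR or DESeq2 (with edgeR, 1 was higher at 3 h and 1 lower at 12 h at an unadjusted p under 0.05, and 3 were lower between 3 and 12 h), with medians of 0.04 at 3 h and −0.07 at 12 h. The lower one at 12 h, LHCB4.2, was at −0.45 (SE 0.11, adjusted p = 0.0022 in edgeR) and missed only the fold minimum. Between 3 and 12 h it was at −0.29 (adjusted p = 0.038 in edgeR).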

How the data were processed

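RNA-seq libraries of Col-0 seedlings, 3 per group, were made and processed by the authors with SortMeRNA 4.3.4, Trimmomatic 0.32, FastQC 0.11.9, and Salmon 1.6.0 on ARAPORT11 transcripts, and tested by them with DESeq2. Salmon's options, including its strand setting, are not given in the sources used here. The estimated counts deposited by the authors are reads per transcript as Salmon expects them, without scaling or pooling. TPM values were deposited by the authors as Salmon made them, from estimated counts over effective length. Between 30.0% and 40.5% of transcripts had an estimated count that is not whole, and 28.3% to 37.2% had an effective length above the annotated one.

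Estimated counts and TPM of 53467 transcripts were summed over 32310 loci, and counts were rounded. Genes were filtered with filterByExpr, scaled with TMM, and tested with edgeR 4.0.16 (glmQLFit, glmQLFTest; limma 3.58.1, R 4.3.3) in 1 model over 9 libraries, with Benjamini-Hochberg adjustment over 20460 genes. SEs were taken as |log2 fold change| divided by √F. The 95% intervals were built from these SEs with the normal distribution, so they are somewhat narrower than the F test implies. The common biological coefficient of variation was 0.105, and the chi-square per degree of freedom between replicates was 3.42 to 13.5, so none was a repeat of another. Replicates came from separate pools of seedlings. Alternatives were DESeq2 1.42.0, its size factors, upper quartile factors, other filters and thresholds, counts from TPM, the 2 compared groups alone, each library left out, and a block for replicate number.

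The 10 genes and all lists were chosen with earlier results of these data known, and lists are described by counts and medians without a test. Of 109 listed loci, 4 were left out because the symbol did not match the reference, CHLP among them. The rule names all 10 genes, up to 3 called genes of each other list with the smallest p in each comparison, and the loci most like each gene. CHLI2, HEMA2, FC2, NOL, CLH2, NYE1, HY5, EIN3, EIL1, GLK1, GLK2, and the root marker PYK10, where outside this rule, and the transcripts described were named after their values were seen. The same holds for HEMG2, GBP, CHLM, LHCB4.2, AT3G56950, AT4G18465, and AT1G03620. Promoters (250 bases before to 50 after the start) and gene structures are from RefSeq TAIR10.1. Sequences were read with Biopython 1.88 and figures drawn with matplotlib 3.10.9. Ratios were tested by permutation under Python 3.11.15 (numpy 2.4.6, pandas 2.3.3) and adjusted with statsmodels 0.14.6.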

Additional observations from a re-analysis of the deposited data

How the results depend on the processing

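With 3 libraries per group, small changes near the fold minimum were the least stable, and PORA rests on 11 to 52 reads per library. Over 51 log2 fold changes and their alternatives (1071 values), 1026 kept direction and call, 26 lost the call, 8 gained it, and 11 changed sign. The calls of PORB at 3 and 12 h were kept in every alternative, and those of GUN4 and CAO at 12 h in all but a fold minimum of 1. For 12 h against 3 h the number of the 10 genes called was 1 with DESeq2 size factors, DESeq2, the 2 groups alone, and both libraries low in shoot markers left out, and 1 to 2 with each library left out. It was 4 with no fold minimum and 0 at a minimum of 1. At 12 h against 22 °C it was 5 and 1. PORA for 12 h against 3 h was called with at least 10 counts in every library (−0.77, edgeR adjusted p = 0.037).

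The other tetrapyrrole genes called at 3 h numbered 2 with upper quartile factors and without both low libraries, 1 to 2 with each library left out, 5 with no fold minimum, and 0 at a minimum of 1. At 12 h they numbered 11 and 1, and for 12 h against 3 h 6 and 0. All genes called numbered 3429 with no fold minimum and 965 at a minimum of 1 at 3 h, 3492 at a minimum of 1 at 12 h, and 8121 and 2348 for 12 h against 3 h. With upper quartile factors the median change over all genes tested was −0.16 at 12 h, in place of −0.03, and −0.11 between the cold groups.

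Values that changed sign were all near 0 and not called. HEMA1 for 12 h against 3 h was 0.0039 with DESeq2 size factors, 0.0040 with counts from TPM and with DESeq2, and −0.12 to 0.11 with each library left out. At 12 h CHLI1 was 0.0333 and CHLD 0.0416 without both low libraries, and −0.134 to 0.0327 and −0.0690 to 0.0408 with each library left out. For the change in log2 ratio from 22 °C to 12 h, the range with each library left out was −1.02 to −0.74 for PORA to PORB, −0.48 to −0.35 for HEMA1 to HEMA2, and −0.0845 to 0.0464 for CHLI1 to CHLI2. The cause was not tested.

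Labels do not tie libraries of the same replicate number together, and residuals of such libraries correlated at r = −0.197 to 0.105. With the replicate number as a block, 2045 genes were called at 3 h, 6665 at 12 h, and 5120 for 12 h against 3 h, and 2, 3, and 2 of the 10 genes. The block changed no call of these genes.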

Other observations

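Across the 9 libraries, which fall into 3 groups and share composition within each library, the profiles most like that of each gene were looked up among genes with a mean of at least 10 CPM, by Pearson r of log2 CPM, as a description. The mean profile of the 10 genes was most like those of the antenna gene LHCB2.2 (r = 0.982), the carbonic anhydrase gene CA2 (0.980), and the photosystem I gene PSAG (0.978). Pairs of the 10 genes ranged from r = −0.803 (GUN4 and PORB) to 0.989 (GUN4 and CAO), so the mean profile does not stand for each gene. PORB was most like PLPB (0.996), for a protein with a light-sensing PAS/LOV domain, and RPP4 (0.995), a disease resistance gene. GUN4 was most like IPMI1 (0.993) and DRB3 (0.992), and CAO most like AT1G66130 and AT2G29340 (both 0.995). GUN4 and CAO had r = 0.989 with each other. HEMA1 was most like the antenna gene CAB2 (0.970) and RL4 (0.952), and CRD1 most like the photosystem II gene PSBQA (0.972) and POLGAMMA2 (0.970). CHLH was most like AT5G35170 (0.994) and AT1G22850 (0.989), CHLI1 like RBP31 (0.979) and HA11 (0.971), and CHLD like AT5G55220 (0.949) and AT3G07670 (0.947). PORC was most like AT3G56290 (0.992) and ftsh9 (0.989), and PORA, with few reads, like AT5G46900 and AT4G29110 (both 0.979).

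PORB overlaps the gene AT4G27450 on the opposite strand by 71 bases. AT4G27450 had a mean of 28.4 CPM at 22 °C, 28.9 CPM after 3 h, and 10.5 CPM after 12 h, a log2 fold change of −1.43 at 12 h (edgeR, adjusted p = 2.8e-07), while PORB rose. At 12 h 33.1% of all genes were called, 17.7% lower. Salmon's strand setting is not given, so reads of the pair may not have been separated. Of the other opposite-strand neighbours tested, GCN2 among them, none was called at 3 or 12 h. AT3G56950 (147 bases with CRD1) was at −0.39 at 12 h (edgeR, adjusted p = 0.015), under the fold minimum. AT4G18465 (116 bases with CHLI1) was at 0.15 and AT1G03620 (121 bases with PORC) at −0.10.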
